A study of Mus musculus with 8 samples.

Results

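The genes described here are the receptors and turnover genes of retinoic acid (RA): Rara, Rarb and Rarg, which encode the RA receptors (RARs); Rxra, Rxrb and Rxrg, which encode the retinoid X receptors (RXRs); Cyp26a1 and Cyp26b1, which encode RA-degrading enzymes; and Crabp1 and Crabp2, which encode cellular RA-binding proteins. These 10 genes were picked by name with earlier results of these data known. Each was found at 1 locus of the female table and 1 locus of the male table, of 23634 and 23360 named genes in all. Germ cells were sorted from E15.5 mouse embryos, whose strain the labels give as C57BL/6 and the study's methods as a mixture of C57BL/6 with other strains, by a transgene that drives EGFP from the Oct4 promoter, and 8 RNA-Seq libraries were made, 4 per sex, of which 2 were control and 2 Snf5 CKO. SNF5, the product of Smarcb1, belongs to the core of SWI/SNF, a complex that remodels chromatin. The Snf5 CKO embryos carried 1 floxed and 1 deleted Snf5 allele (Snf5 fx/Δ) with TNAP-Cre, a Cre knocked into the Alpl gene that acts in fetal germ cells and not throughout the gonad. Control samples mixed germ cells of the genotypes Snf5 fx/+, Snf5 fx/Δ and Snf5 fx/+ with TNAP-Cre, so that the deleted allele was also present in part of the control cells. Recombination is incomplete with this Cre, and germ cells that keep SNF5 remain among the CKO cells. The female samples and the male controls each pooled more than 1 embryo. The male Snf5 CKO entries in the study's list of sorted cells came from 1 mouse each, with 2 entries for 1 sample. In males the number of embryos thus went with genotype.

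RA is made from vitamin A in steps, from retinol to retinal to RA. It enters the nucleus and binds RARs, which sit on DNA as heterodimers with RXRs, and bound RA exchanges corepressors for coactivators at the receptor. CYP26 enzymes hydroxylate RA and so end its action. CRABP2 is known for handing RA to the receptors, and CRABP1 for holding RA in the cytoplasm and passing it to CYP26 enzymes. In the fetal gonad RA is best known for inducing Stra8, a gene of meiotic entry, in female germ cells, and Cyp26b1 for keeping RA low in the fetal testis.

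RARs bind direct repeats of a short half-site, of which the repeat with a spacer of 5 bases, DR5, is the classical form, and Rarb and Cyp26a1 are textbook RA target genes that carry one near their start. These promoters are shown because Cyp26a1 and Rarb, though both hold the element, had unlike values in Snf5 CKO germ cells. The sequences come from the RefSeq promoter windows of GRCm38.p6, are written 5′ to 3′ on the gene's strand, and have the half-sites in capitals. The Rarb stretch lies at chr14:16575493-16575549 on the minus strand, 73 to 17 bases before the start of a Rarb transcript, and the Cyp26a1 stretch lies at chr19:37697756-37697807 on the plus strand, 52 to 1 bases before the start.
Rarb: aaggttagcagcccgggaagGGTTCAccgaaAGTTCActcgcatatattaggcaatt
Cyp26a1: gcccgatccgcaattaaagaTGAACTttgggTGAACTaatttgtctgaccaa
The search took the half-site AGGTCA or one of its common variants, namely GGGTCA or the AGTTCA of the Rarb element or the GGTTCA beside it, in any pair of the same direction with 5 bases between them, on both strands. In Rarb the repeat reads along the gene, and in Cyp26a1 it lies on the opposite strand, so that its half-sites appear as their reverse complement. Among 32851 windows of the same length, 32 (0.0974%) held such a repeat. Windows were found for 9 of the 10 genes, all but Crabp2, with 16 windows in all, and of these genes only Rarb and Cyp26a1 held one. Since the variants searched for included both half-sites of the Rarb element, its hit was fixed in advance. The share over all windows is therefore a description only. With spacers of 1 or 2 bases, the repeat was in 0.222% and 0.268% of all windows and in none of these genes.

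The targeted gene was checked first. In females Smarcb1 was at 23.4 and 22.3 FPKM in control against 4.24 and 2.47 FPKM in Snf5 CKO, where FPKM stands for fragments per kilobase of transcript and per unit of library size. In males it was at 141 and 167 FPKM in control and at 8.73 and 10.1 FPKM in Snf5 CKO. The log2 fold change of Snf5 CKO over control, taken here and below from log2(FPKM + 1), where low genes appear to change less than they do, was -2.48 (SE 0.24, limma adjusted p = 0.00027) in females and -3.90 (SE 0.18, adjusted p = 0.0021) in males. Female and male values come from tables that were normalized separately, so levels set across the sexes are a description and no difference between the sexes was tested. Genes were called when they passed both a log2 fold change of 1, in either direction, and an adjusted p of 0.05 over all genes tested. By this rule 17.3% of the 11520 genes tested in females were higher and 21.6% lower in Snf5 CKO, and 14.4% of the 12269 genes tested in males were higher and 17.5% lower. The sum of all FPKM of a library ranged from 673741 to 1554757, and the depth in reads is unknown, since the files hold no counts.

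In female Snf5 CKO germ cells, Rara, Rarg, Cyp26a1 and Crabp2 were called higher and none of the 10 genes was called lower. In male Snf5 CKO germ cells, Rarg, Rxra, Crabp1 and Crabp2 were called lower and none was called higher. Thus Rarg and Crabp2 were called higher in females and lower in males, a pattern found in 117 of the 10623 genes tested in both tables (1.1%). Of the 10 genes, 7 passed the filter of a mean of 1 FPKM in females and 6 in males, and Cyp26a1 passed it in females only through its Snf5 CKO libraries. The 4 called of 7 tested in females stand beside 17.3% of all genes called higher, and the 4 of 6 in males beside 17.5% of all genes called lower. The median log2 fold change over the tested members was 1.03 in females and -1.19 in males, against -0.13 and -0.07 over all genes tested. Since the members were chosen with earlier results of these data known, these counts and medians are a description only. Rarb, Rxrg and Cyp26b1 stayed under the filter in both sexes.

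**Figure D1:**
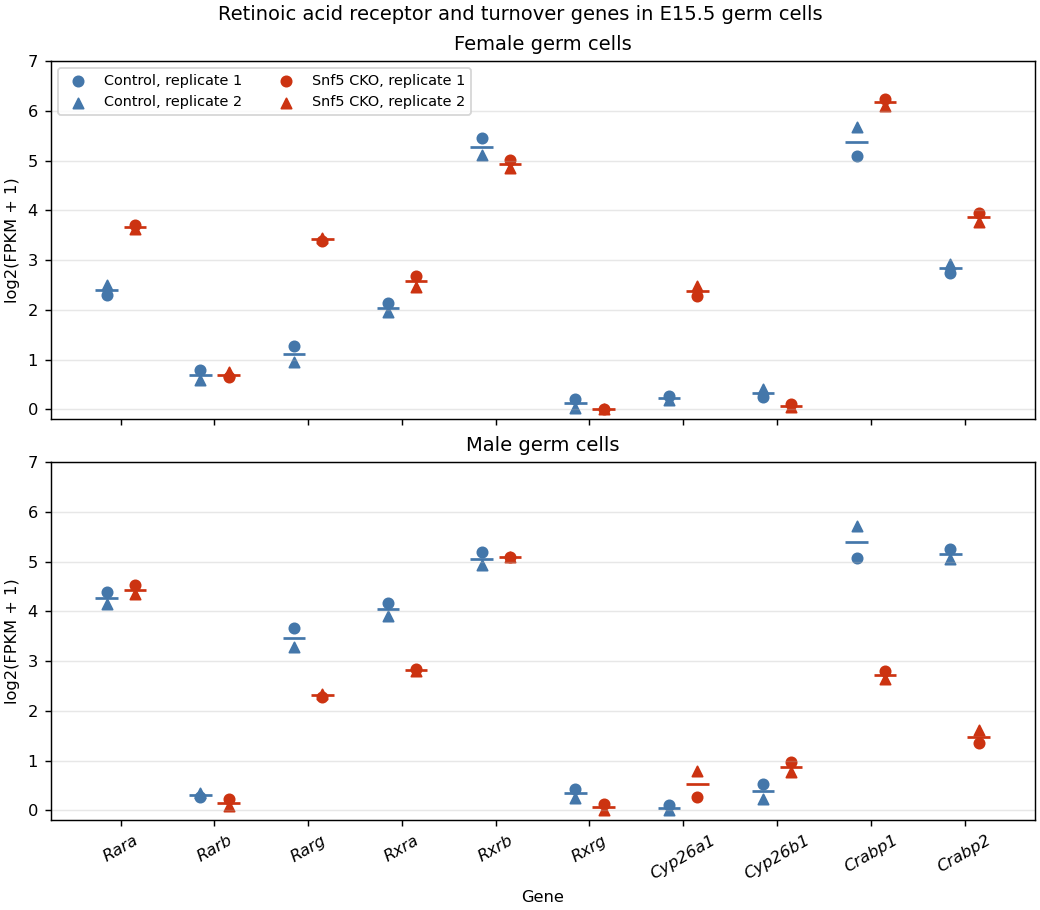
The level of each of the 10 genes as log2(FPKM + 1) in every library, females above and males below, with control in blue, Snf5 CKO in red, circles for replicate 1, triangles for replicate 2 and short lines for group means. Crabp2 lies at 37.3 and 32.03 FPKM in male control and at 1.55 and 2.05 FPKM in male Snf5 CKO, and Rarg lies higher in female and lower in male Snf5 CKO than in the control of the same sex.

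Rara, at chr11:98933415-98974942 in the female table (mm10), encodes RARα. It was at 3.90 and 4.62 FPKM in female control and at 12.03 and 11.28 FPKM in female Snf5 CKO. Both Snf5 CKO libraries lay above both controls, with means of 4.26 ± 0.505 and 11.7 ± 0.535 FPKM (SD, n = 2) and a log2 fold change of 1.27 (SE 0.19, adjusted p = 0.0014). In males Rara was at 19.97 and 16.84 FPKM in control and at 22.0 and 19.5 FPKM in Snf5 CKO. The male libraries overlapped, and the log2 fold change of 0.17 had a 95% interval of -0.31 to 0.64 (adjusted p = 0.50) and turned to -0.013 when each library was rescaled to the same sum.

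Rarg, at chr15:102234938-102257522 in the female table, encodes RARγ, which is known from undifferentiated and early embryonic cells. It was at 1.40 and 0.942 FPKM in female control and at 9.40 and 9.93 FPKM in female Snf5 CKO. The mean rose 8.24-fold, from 1.17 ± 0.327 to 9.66 ± 0.379 FPKM (SD, n = 2), with a log2 fold change of 2.30 (SE 0.20, adjusted p = 0.00020). In males Rarg was at 11.7 and 8.71 FPKM in control and at 3.86 and 4.09 FPKM in Snf5 CKO. The male mean was 2.57-fold lower in Snf5 CKO, with a log2 fold change of -1.16 (SE 0.22, adjusted p = 0.012). The male call was lost without control replicate 1, when the log2 fold change was -0.96 (adjusted p = 0.058), and without the filter on low genes (adjusted p = 0.054).

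Rarb, at chr14:16430840-17082331, encodes RARβ and is itself induced by RA in many cells. It was at 0.737 and 0.511 FPKM in female control and at 0.564 and 0.673 FPKM in female Snf5 CKO, so the female groups overlapped at a low level. In males it was at 0.201 and 0.278 FPKM in control and at 0.168 and 0.0592 FPKM in Snf5 CKO. Rarb was under the filter in both sexes and was not tested. Cyp26a1, whose start carries the same kind of element, rose from a mean of 0.169 to one of 4.23 FPKM in females, while the mean of Rarb was 0.624 FPKM in control against 0.618 FPKM in Snf5 CKO.

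The summed FPKM of the 3 RAR genes was 6.04 and 6.07 in female control and 22.0 and 21.9 in female Snf5 CKO. It was 31.9 and 25.8 in male control and 26 and 23.6 in male Snf5 CKO. Rara was the most abundant RAR gene in all 8 libraries, and Rarg came next in all of them. The share of Rarg in the family was 23.2% and 15.5% in female control and 42.7% and 45.4% in female Snf5 CKO, while it was 36.7% and 33.7% in male control and 14.8% and 17.3% in male Snf5 CKO. The share of Rarb was 12.2% and 8.42% in female control and 2.56% and 3.07% in female Snf5 CKO, where its own level was about the same and the sum of the family was larger.

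Rxra, at chr2:27677201-27763319 in the female table, encodes RXRα. It was at 3.40 and 2.87 FPKM in female control and at 5.45 and 4.50 FPKM in female Snf5 CKO. Both Snf5 CKO libraries lay above both controls, as for 36.4% of all genes tested, and the log2 fold change of 0.53 (95% interval 0.06 to 1.01) missed the threshold (adjusted p = 0.054). A block for the replicate number left the fold change as it was and brought the adjusted p to 0.018. In males Rxra was at 17.1 and 13.9 FPKM in control and at 6.20 and 5.97 FPKM in Snf5 CKO. The male mean fell from 15.5 ± 2.24 to 6.09 ± 0.167 FPKM (SD, n = 2), with a log2 fold change of -1.21 (SE 0.19, adjusted p = 0.0077).

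Rxrb, at chr17:34031812-34038403, encodes RXRβ, the broadly expressed RXR. It was at 42.5 and 33.6 FPKM in female control and at 31.4 and 27.9 FPKM in female Snf5 CKO. In Snf5 CKO both values were under those of the controls, as for 45.1% of all genes tested, with a log2 fold change of -0.34 (95% interval -0.79 to 0.11, adjusted p = 0.15). With the replicate block the adjusted p was 0.019, at a fold change far under the limit for a call. In males Rxrb was at 35.4 and 29.4 FPKM in control and at 33.2 and 33.1 FPKM in Snf5 CKO, with a log2 fold change of 0.04 (95% interval -0.41 to 0.49, adjusted p = 0.88), which turned to -0.15 with a common sum and to -0.093 without control replicate 2.

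Rxrg, at chr1:167598362-167639623, encodes RXRγ, which is known mainly from muscle and the nervous system. It was at 0.152 and 0.0244 FPKM in female control and is listed at 0 in both female Snf5 CKO libraries. In males it was at 0.342 and 0.194 FPKM in control, at 0.0948 FPKM in Snf5 CKO replicate 1 and listed at 0 in Snf5 CKO replicate 2. Rxrg was thus at or near 0 in all groups and was not tested.

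Within the RXR family Rxrb was the most abundant gene in all 8 libraries. The share of Rxra was 7.37% and 7.85% in female control and 14.8% and 13.9% in female Snf5 CKO. In males it was 32.3% and 32% in control and 15.7% and 15.3% in Snf5 CKO. Shares of Rxra in the 4 Snf5 CKO libraries thus ran from 13.9% to 15.7%, with the female controls below this range and the male controls above it. The ratio of summed RXR to summed RAR was 7.63 and 6.02 in female control and 1.68 and 1.48 in female Snf5 CKO. In males the ratio was 1.66 and 1.68 in control and 1.52 and 1.65 in Snf5 CKO.

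**Figure D2:**
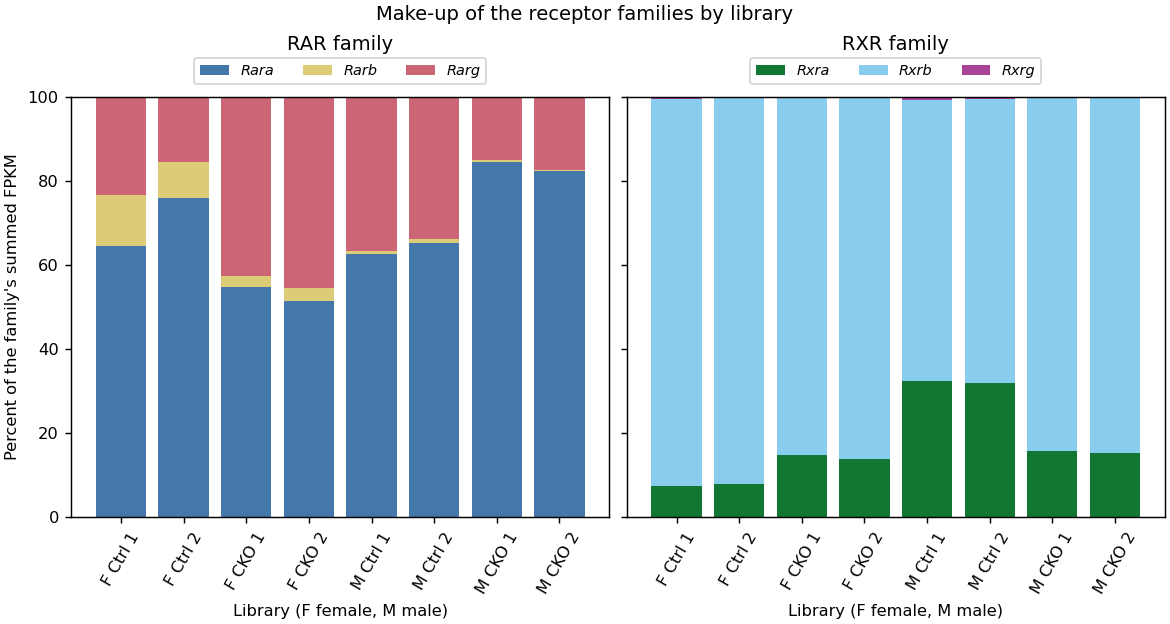
Stacked bars give the percent of the summed FPKM of the RAR family, left, and of the RXR family, right, that each gene supplied in each of the 8 libraries. The share of Rarg was larger in female Snf5 CKO and smaller in male Snf5 CKO than in the controls of the same sex, and the share of Rxra in Snf5 CKO lay between 13.9% and 15.7% in both sexes.

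Cyp26a1, at chr19:37697733-37701536 in the female table, encodes an RA hydroxylase that RA itself induces in many cells. It was at 0.199 and 0.138 FPKM in female control and at 3.86 and 4.60 FPKM in female Snf5 CKO. The mean was 25.1-fold higher in Snf5 CKO, the log2 fold change was 2.16 (SE 0.19, adjusted p = 0.00020), and it was 4.02 with a pseudocount of 0.1 in place of 1. The gene passed the filter only because of its level in Snf5 CKO. The confidence bounds that the authors' tables give for it started at 0 in all 4 female libraries and ended at 0.574 and 0.399 FPKM in control and at 8.94 and 9.46 FPKM in Snf5 CKO, so that the bounds of single libraries overlapped. Bounds of control and Snf5 CKO libraries also overlapped for the other called members. For male Crabp2 they did so only between control replicate 2 and Snf5 CKO replicate 2. In males Cyp26a1 was at 0.0797 FPKM in control replicate 1, listed at 0 in control replicate 2, and at 0.199 and 0.724 FPKM in Snf5 CKO. Both male values in Snf5 CKO exceeded those in control, as for 34.6% of all genes tested in males, at a level under the filter.

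Cyp26b1, at chr6:84571414-84593908, encodes the RA hydroxylase known from the fetal testis. It was at 0.189 and 0.328 FPKM in female control and at 0.0716 and 0.0308 FPKM in female Snf5 CKO. In males it was at 0.446 and 0.170 FPKM in control and at 0.965 and 0.709 FPKM in Snf5 CKO. All libraries were thus under 1 FPKM, with Snf5 CKO below control in females and above control in males. Fitted without a filter, the log2 fold changes were -0.26 in females (adjusted p = 0.13) and 0.49 in males (adjusted p = 0.15), neither past the threshold. In the female Snf5 CKO libraries Cyp26a1 was therefore the more abundant of the 2 enzyme genes, and in the other groups both were under 1 FPKM.

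Crabp1, at chr9:54764748-54773110, encodes the binding protein that holds RA in the cytoplasm, and had the highest mean of the 10 genes in both control groups. It was at 32.9 and 49.998 FPKM in female control and at 74.6 and 67.4 FPKM in female Snf5 CKO. Both female Snf5 CKO libraries lay above both controls, and the log2 fold change was 0.79 (SE 0.23, adjusted p = 0.022), under the limit for a call. The female difference lost its adjusted p without control replicate 1 (log2 fold change 0.50, adjusted p = 0.13), without Snf5 CKO replicate 1 (0.72, adjusted p = 0.070) and without the filter (adjusted p = 0.16), and passed the limit of a call without control replicate 2 (1.08, adjusted p = 0.0018). In males Crabp1 was at 32.7 and 51.4 FPKM in control and at 6.01 and 5.20 FPKM in Snf5 CKO. The male mean fell 7.5-fold, from 42.0 ± 13.3 to 5.60 ± 0.570 FPKM (SD, n = 2), with a log2 fold change of -2.67 (SE 0.27, adjusted p = 0.0028).

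Crabp2, at chr3:87948693-87953372, encodes the binding protein that hands RA to the receptors. It was at 5.70 and 6.56 FPKM in female control and at 14.4 and 12.6 FPKM in female Snf5 CKO. The female mean rose 2.2-fold, from 6.13 ± 0.608 to 13.5 ± 1.25 FPKM (SD, n = 2), with a log2 fold change of 1.03 (SE 0.19, adjusted p = 0.0033). This change sat at the limit for a call and was 0.94 without control replicate 1 (adjusted p = 0.0095) and 0.94 without Snf5 CKO replicate 1 (adjusted p = 0.020). In males Crabp2 was at 37.3 and 32.03 FPKM in control and at 1.55 and 2.05 FPKM in Snf5 CKO. Both values in Snf5 CKO were under those in control, as for 40% of all genes tested in males. The male mean fell 19.3-fold, from 34.7 ± 3.73 to 1.80 ± 0.351 FPKM (SD, n = 2), with a log2 fold change of -3.67 (SE 0.20, adjusted p = 0.0021). On the log2(FPKM + 1) scale this was the largest change in size among the 10 genes in either sex. As a ratio of mean FPKM, female Cyp26a1 changed more, at 25.1-fold. In male control 86.7% of named genes lay below Crabp2, and in male Snf5 CKO 54.5% did.

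The summed FPKM of Crabp1 and Crabp2 was 38.6 and 56.6 in female control and 89.0 and 80.0 in female Snf5 CKO. It was 70.0 and 83.4 in male control and 7.56 and 7.25 in male Snf5 CKO. The Snf5 CKO sums thus lay above the control sums in females and below them in males.

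**Figure D3:**
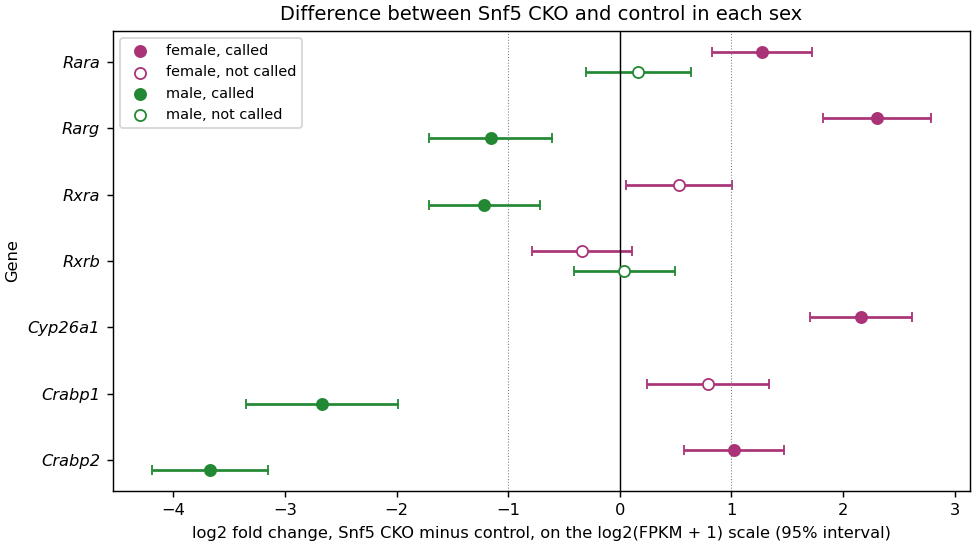
Points give the log2 fold change of Snf5 CKO over control on the log2(FPKM + 1) scale for the members that passed the filter, 7 in females and 6 in males, with bars for 95% intervals, filled points for called genes and dotted lines at 1 and -1. Rarg and Crabp2 are called to the right of 0 in females and to the left of 0 in males, and Rxrb lies near 0 in both.

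In female control the genes followed the order Crabp1, Rxrb, Crabp2, Rara, Rxra, Rarg, Rarb, Cyp26b1, Cyp26a1 and Rxrg, in which the libraries of Crabp1 and Rxrb overlapped, as did those of Cyp26b1 and Cyp26a1 and those of Cyp26a1 and Rxrg. In female Snf5 CKO the order was Crabp1, Rxrb, Crabp2, Rara, Rarg, Rxra, Cyp26a1, Rarb, Cyp26b1 and Rxrg, with an overlap between Rxra and Cyp26a1. In male control Crabp1, Crabp2 and Rxrb came first and overlapped as neighbours, followed by Rara and Rxra, which overlapped, then by Rarg, Cyp26b1, Rxrg, Rarb and Cyp26a1, with overlaps between Cyp26b1 and Rxrg and between Rxrg and Rarb. In male Snf5 CKO Rxrb and Rara came first, followed by Rxra and Crabp1, which overlapped, then by Rarg, Crabp2, Cyp26b1, Cyp26a1, Rarb and Rxrg, with overlaps between the Cyp26 genes and between Rarb and Rxrg. The binding protein genes thus held the first place in 3 groups, and in male Snf5 CKO they stood below Rxrb and Rara.

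Genes of the wider pathway were counted in 4 lists. For the supply of RA from vitamin A, 11 genes were counted. In females 6 were tested, 2 were called higher (Rdh11, Aldh1a1) and 2 lower (Rbp4, Rdh14). Aldh1a1, which encodes an enzyme that makes RA from retinal, had a female log2 fold change of 1.04 (SE 0.26, adjusted p = 0.011), which was 0.92 without control replicate 1 and 0.74 without Snf5 CKO replicate 2. In males 7 were tested, 3 were called higher (Aldh1a1, Rdh11, Stra6) and 1 lower (Rbp4). Male Aldh1a1 was at 24.8 and 14.8 FPKM in control and, in Snf5 CKO, at 71.4 and 74.4 FPKM (log2 fold change 1.87, SE 0.27, adjusted p = 0.0061). Rbp4, which encodes the carrier of retinol in blood, was lower in Snf5 CKO in both sexes (log2 fold change -1.92 in females and -2.37 in males), and the retinol dehydrogenase gene Rdh11 was higher in both (1.53 and 1.65).

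All 9 coregulators of the receptors that were counted were tested in both sexes. In females the corepressor gene Nrip1 (log2 fold change 1.89, adjusted p = 0.00055) was called higher, and the coactivator genes Ncoa3 (-1.70, adjusted p = 0.00062) and Ncoa1 (-1.19, adjusted p = 0.0062) lower. The call of Ncoa1 lies near the limit, with a change of -0.93 without control replicate 1 and of -0.98 without Snf5 CKO replicate 2. In males Nrip1 (2.07, adjusted p = 0.0068), the coactivator gene Ncoa2 (1.43, adjusted p = 0.016) and the corepressor gene Ncor1 (1.42, adjusted p = 0.0081) were called higher and none lower. Nrip1, the coregulator called in both sexes, was at 3.05 and 2.67 FPKM in female control and at 15.8 and 11.2 FPKM in female Snf5 CKO, and at 2.03 and 1.43 FPKM in male control and at 13.8 and 7.74 FPKM in male Snf5 CKO. The coregulators had a median log2 fold change of 0.40 in females and 0.55 in males.

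Among 11 other partners of RXRs and their ligand carriers, 7 were tested in females and 4 in males. Pparg, which encodes a nuclear receptor of fat cells, was called lower in females (log2 fold change -2.08, adjusted p = 0.00019), from 32.3 and 27.2 FPKM in control to 6.31 and 6.15 FPKM in Snf5 CKO. Nr4a1, an immediate early gene, was called higher in females (1.20, adjusted p = 0.0054), and was at 0.90 without Snf5 CKO replicate 2. It was at 0.895 and 0.834 FPKM in control and at 2.47 and 4.33 FPKM in Snf5 CKO, and passed the filter only through the latter. Thra, which encodes a thyroid hormone receptor, was called higher in males, from 4.16 and 3.39 FPKM to 11.9 and 12.8 FPKM (1.49, adjusted p = 0.0046).

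Of 11 genes known to respond to RA, 2 of which also stand in the list of supply and 1 in that of coregulators, 4 were tested in females and 3 of them were called higher. Cdx1, a homeobox gene, was at 4.21 and 3.58 FPKM in female control and at 25.1 and 25 FPKM in female Snf5 CKO (log2 fold change 2.42, SE 0.18, adjusted p = 0.00013). Rec8, which encodes a meiotic cohesin, was at 27.4 and 47.1 FPKM in female control and at 110 and 97.9 FPKM in female Snf5 CKO (1.5, SE 0.27, adjusted p = 0.0028). The other was Nrip1, given above. In males 7 were tested, of which Rec8 (1.65, adjusted p = 0.0047), Stra6 and Nrip1 were called higher and Meis2 lower (-1.28, adjusted p = 0.0046). Stra6 passed the filter only through its Snf5 CKO libraries and Meis2 only through its controls, and Meis2 fell under the filter when either male control was left out. Stra8, named here after its values were seen because it is the best known RA target of germ cells, was at 225 and 393 FPKM in female control and at 269 and 330 FPKM in female Snf5 CKO, and was not called (adjusted p = 0.99). Male Stra8 was at 2.40 and 3.66 FPKM in control and at 3.3 and 9.83 FPKM in Snf5 CKO (0.78, adjusted p = 0.23), with an adjusted p of 0.027 with the replicate block and a log2 fold change of 1.44 (adjusted p = 0.0097) without Snf5 CKO replicate 1.

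Over the 4 lists together, each gene taken once, 6 of 25 genes tested (24%) were called higher and 5 (20%) lower in females, beside 17.3% and 21.6% of all genes. In males 8 of 25 (32%) were called higher and 2 (8%) lower, beside 14.4% and 17.5% of all genes. These counts include Nr4a1 in females and Stra6 and Meis2 in males, which passed the filter only through the group where they were high. The lists were also chosen with earlier results of these data known, so the shares are a description only. The median of the RA-responsive genes was 1.70 over 4 genes in females and 0.78 over 7 in males, against -0.13 and -0.07 over all genes tested. In females and males the medians were -0.75 and 0.29 for retinoid supply and -0.16 and 0.67 for the other RXR partners. None of the listed genes outside Rarb and Cyp26a1 held the DR5 repeat in its windows.

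**Figure D4:**
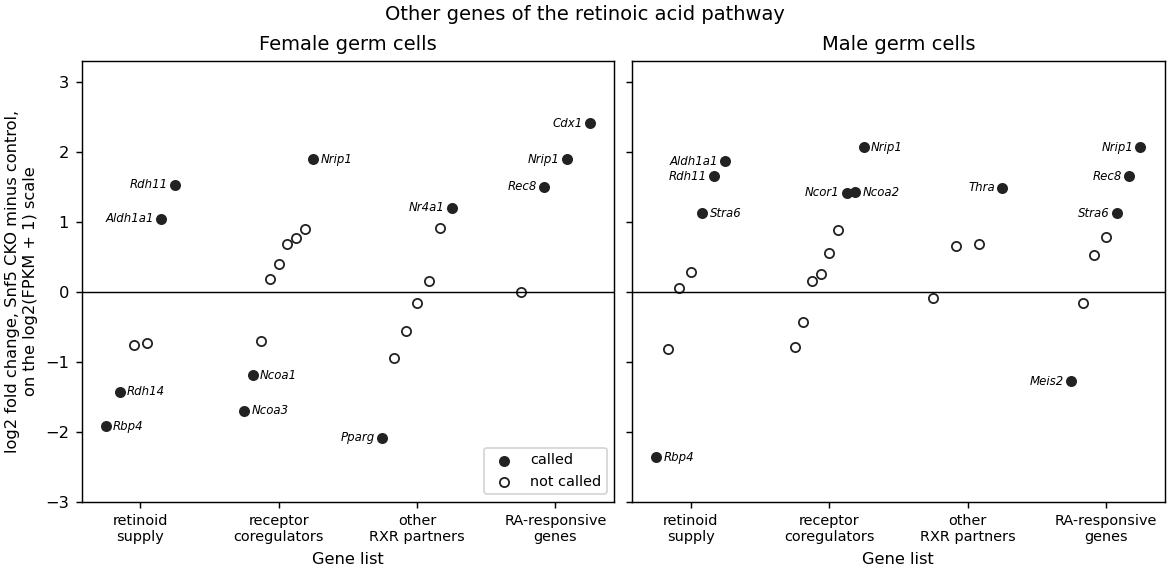
Each point is the log2 fold change of Snf5 CKO over control, on the log2(FPKM + 1) scale, of 1 tested gene of the lists of retinoid supply, receptor coregulators, other RXR partners and RA-responsive genes, with called genes filled and named. Nrip1, Rdh11 and Rec8 lie above 1 in both sexes, and Rbp4 lies below -1 in both.

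Profiles over all 8 libraries, each centred on the mean of its table, were compared for the 5 called members that passed the filter in both sexes, among 10622 other genes. The nearest genes to Rarg were Kcnip2 (root mean square difference 0.127 on the log2 scale) and Rsu1 (0.174). Rara was nearest to 5430405H02Rik (0.041) and Rrs1 (0.046), and Rxra to Ercc3 (0.068) and Wdr75 (0.071). Crabp1 was nearest to Lrriq4 (0.220) and Glis1 (0.221), and Crabp2 to 4921531P14Rik and Sult4a1, at a larger distance (0.304 and 0.305).

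Markers of other gonadal cells were read from the same libraries, in which fewer cells of a type and less RNA per cell cannot be told apart. The study's list of sorted cells gives a high and similar purity for the control and Snf5 CKO samples of each sex. The marker levels were not set against that purity. The germ cell markers Ddx4, Dazl, Dnd1, Mael and Pou5f1 summed to 1817 and 1840 FPKM in female control, 1519 and 1485 in female Snf5 CKO, 3122 and 3234 in male control and 2165 and 2025 in male Snf5 CKO, with Dazl the highest in mean. In each sex 2 of these 5 markers lay above both controls in both Snf5 CKO libraries and 3 lay below. Over all genes tested, 36.4% lay above and 45.1% below in females, and 34.6% and 40% in males. Mael was called lower in Snf5 CKO in both sexes, while Dnd1 was called higher in females (log2 fold change 4.39, adjusted p = 9.68e-05) and lower in males (-1.78, adjusted p = 0.012). Male Dazl was at 697 and 606 FPKM in control and at 997 and 789 FPKM in Snf5 CKO (0.45, adjusted p = 0.26). Pou5f1 encodes OCT4, whose promoter drives the transgene used for sorting. It was at 8.63 and 16.7 FPKM in female control and at 295 and 333 FPKM in female Snf5 CKO (log2 fold change 4.59, adjusted p = 9.87e-05), and at 399 and 436 FPKM in male control and at 620 and 648 FPKM in male Snf5 CKO (0.60, adjusted p = 0.094).

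In females all 6 pre-granulosa markers were higher in both Snf5 CKO libraries than in both controls, beside 36.4% of all genes tested. Of the 6, 3 were called, beside 17.3% of all genes called higher. The pre-granulosa markers summed to 6.35 and 9.73 FPKM in control, against 26 and 24.9 FPKM in Snf5 CKO. The 6 Sertoli markers summed to 2.89 and 5.39 FPKM in control, against 10.6 and 11.9 FPKM in Snf5 CKO, mostly Aard, with Dhh at 0 in both controls and Amh and Sox9 at no more than 0.132 FPKM in any library. The 5 Leydig markers summed to 4.74 and 4.89 FPKM in control, against 12 and 11.8 FPKM in Snf5 CKO, mostly Insl3. The 6 stromal markers summed to 11.6 and 5.88 FPKM in control, against 3.48 and 4.8 FPKM in Snf5 CKO. Of the 6, 3 were lower in both Snf5 CKO libraries, beside 45.1% of all genes tested. The 6 blood and endothelial markers summed to 23.8 and 98.7 FPKM in control and to 27.4 and 83.9 FPKM in Snf5 CKO, with the globin gene Hbb-bs highest in mean. Pecam1 was called higher, while Cdh5 and Kdr were lower in both Snf5 CKO libraries. Cdh5 went from 0.106 and 0.131 FPKM in control to 0.00946 and 0 FPKM, and Kdr from 0.390 and 0.149 to 0.0954 and 0.0595 FPKM. The female increases of Rara, Rarg, Cyp26a1 and Crabp2 thus went with higher sums of pre-granulosa, Sertoli and Leydig markers and with lower sums of germ cell and stromal markers, whose part in them was not tested. Of the germ cell markers, Ddx4, Dazl and Mael were lower and Dnd1 and Pou5f1 higher in both female Snf5 CKO libraries.

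In males all 6 Sertoli markers were called higher in Snf5 CKO, beside 14.4% of all genes tested. Cldn11 passed the filter only through its Snf5 CKO libraries. The Sertoli markers summed to 82.8 and 69.5 FPKM in control, against 356 and 535 FPKM in Snf5 CKO, with Ptgds highest. The 6 pre-granulosa markers summed to 6.79 and 7.19 FPKM in control, against 30.7 and 32.9 FPKM in Snf5 CKO, mostly Amhr2, with Foxl2 at no more than 0.105 FPKM in any library. All 5 Leydig markers were lower in both Snf5 CKO libraries, beside 40% of all genes tested, and 3 were called, beside 17.5%. They summed to 85.7 and 58.2 FPKM in control, against 19.2 and 15.1 FPKM in Snf5 CKO. All 6 stromal markers were lower in both Snf5 CKO libraries, again beside 40% of all genes tested. They summed to 18.5 and 10.0 FPKM in control, against 4.04 and 2.62 FPKM in Snf5 CKO. The 6 blood and endothelial markers summed to 48.5 and 81.2 FPKM in control, against 49.2 and 50.3 FPKM in Snf5 CKO, again with Hbb-bs highest. Cdh5 and Kdr were lower in both Snf5 CKO libraries, each under 1 FPKM in every library, and no marker of the list was called. The male decreases of Rarg, Rxra, Crabp1 and Crabp2 thus went with lower sums of Leydig, stromal and germ cell markers. Of the germ cell markers, Ddx4, Dnd1 and Mael were lower and Dazl and Pou5f1 higher in both Snf5 CKO libraries. The decreases of these 4 members also went with higher sums of Sertoli and pre-granulosa markers, and the part of the marker changes in them was not tested.

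**Figure D5:**
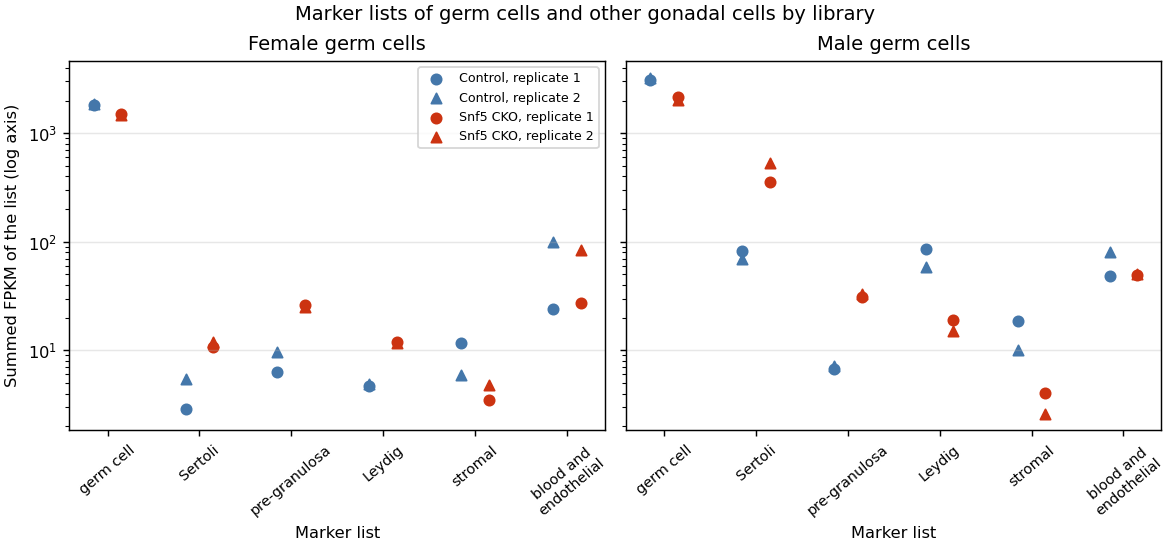
Summed FPKM of each marker list in every library on a log axis, females left and males right, with control in blue, Snf5 CKO in red, circles for replicate 1 and triangles for replicate 2. Sertoli markers sum to 82.8 and 69.5 FPKM in male control and to 356 and 535 FPKM in male Snf5 CKO, and germ cell markers have the highest sums in all 8 libraries.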

How the data were processed

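Total RNA of sorted E15.5 germ cells was amplified with a SMART-Seq kit and made into unstranded Nextera XT libraries. Paired-end reads were mapped by Tophat and quantified by Cufflinks on UCSC mm10 by the authors, who deposited 1 table per sex with the FPKM of each locus in each library and its confidence bounds. The submitters' processing notes name TopHat2 2.2.1 and Cuffdiff 2.1.1, while the study's methods give Tophat 2.1.1 and Cufflinks 2.2.1. The annotation version and the scaling for library size are not given in the sources used here, so a gene's FPKM can depend on both. Unnamed loci, left out here, held 5.46% to 42.1% of the FPKM of a library.

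Of 29018 female and 30216 male loci, the named locus with the highest mean FPKM was kept for each gene, and 1 was added to starts, which count from 0. No member's locus was merged with or overlapped by another named locus. The sexes were fitted separately in limma 3.58.1 (R 4.3.3; lmFit on log2(FPKM + 1), eBayes with trend, two-sided, Benjamini-Hochberg), for genes whose mean reached 1 FPKM. A call needed a log2 fold change of 1 or more in size together with an adjusted p under 0.05. The fit was tested on simulated data. For a single gene the exact two-sided permutation p of 2 against 2 libraries is at least 0.333, so none was used. The samples are described as biological duplicates, and p-values measure the spread between these libraries only.

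Replicate numbers 1 and 2 are shared by the groups and mark different experiments in the male column names. They also go with different styles of raw file names in both sexes. The labels do not say outright that samples of the same number share an experiment. The main fit left the number out, and an alternative took it as a block. The deviations of replicate 2 from replicate 1 in control and Snf5 CKO correlated across genes at r = 0.500 in females and 0.607 in males. Alternatives were this replicate block, the pseudocount, the filter, median-of-ratios rescaling, rescaling to a common sum over named loci, no trend in eBayes, only loci with status OK, and leaving out each library.

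The members and lists were chosen with earlier results of these data known, and some genes of the lists are not reported here and were left out of the lists' counts. Named were all members, Smarcb1, in each pathway list the called genes (at most 4 per list and sex), the 2 nearest profiles of each member called in at least 1 sex and tested in both, and in each marker list the gene with the highest mean FPKM. Further marker genes were named after their values were seen. Promoter windows, 250 bases before to 50 after a start, came from RefSeq on GRCm38.p6, and figures were drawn with matplotlib 3.10.9.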

Additional observations from a re-analysis of the deposited data

Results flagged for a closer look

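Among members and named pathway genes, 7 had both Snf5 CKO values over the controls in 1 sex and both under them in the other. In females 36.4% of all genes tested had both Snf5 CKO values above both controls and 45.1% below, and in males 34.6% and 40%. The share of all genes with opposite directions in the sexes was not counted, so the 7 cannot be called more than usual. The difference between the sexes was not tested, since the female and male tables were normalized separately. As log2 fold changes in females and in males, Rarg was at 2.30 and -1.16, Crabp2 at 1.03 and -3.67, Crabp1 at 0.79 and -2.67 and Rxra at 0.53 and -1.21. Cyp26b1, under 1 FPKM in all libraries and fitted without a filter, was at -0.26 and 0.49. Among the pathway genes Cdx1 was at 2.42 in females and at -0.39 in males, the male value again from the fit without a filter, and the coactivator gene Ncoa1 was at -1.19 and 0.89.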

How the results depend on the processing

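The counts of members called (4 higher and 0 lower in females, 0 higher and 4 lower in males) stayed within a factor of 1.5 under all alternatives. With each library left out, they were 3 to 5 higher in females and 3 to 4 lower in males. Of 154 values of members under an alternative, 142 kept their direction and their side of the adjusted p, 4 passed it, 5 lost it and 3 reversed. Reversed were male Rara (-0.013) and Rxrb (-0.15) with a common sum, male Rxrb over left-out libraries (-0.093 to 0.17), and, among pathway genes, female Stra8 (-0.40 to 0.40). Without a filter the pathway lists had 3 genes lower and 3 higher in females and 4 higher in males, and 1100 of all male genes were higher against 1761. With a mean of at least 5 FPKM, 3 pathway genes were higher in females and 1 was lower in males, and 1347 of all male genes were lower against 2141. In males 1 to 3 pathway genes were lower over left-out libraries, with 1 without control replicate 1. The replicate block left the members at 4 higher in females and 4 lower in males. It gave adjusted p-values under 0.05 to female Rxra (0.018) and Rxrb (0.019) and to male Stra8 (0.027), Ncoa1 (0.0069) and Ncoa3 (0.0015), all under the fold limit, and moved none of the other members or named pathway genes across 0.05. Values with the block were not taken for marker genes. Median-of-ratios rescaling shifted the median of all genes by 0.15 in females and 0.14 in males, and a common sum by -0.17 in males. The share of calls that were higher was 44.5% in females and 45.1% in males, 52.7% and 54.4% with median-of-ratios rescaling, and 33.8% in males with a common sum. The depth is unknown, so no counting error or detection limit was set for genes under 1 FPKM beyond the authors' confidence bounds.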
